A study of Mus musculus with 18 samples.

Results

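The genes described here encode the subunits of the mitochondrial respiratory chain and of ATP synthase. They were found by symbol: every probe set with a single gene symbol in the array's annotation that names a complex I subunit (Nduf), a succinate dehydrogenase subunit (Sdha to Sdhd), a complex III subunit (Uqcr genes and Cyc1), cytochrome c (Cycs), a cytochrome c oxidase subunit (Cox5 to Cox8 families) or an ATP synthase subunit (Atp5 genes). This gave 149 probe sets, and the probe set with the highest mean over the 18 arrays stood for each gene, which left 78 genes of the 12393 with such a probe set. Complex I had 33 of them, complex II 4, complex III 9, cytochrome c 1, complex IV 14 and complex V, the ATP synthase, 17. A further 7 probe sets carried several symbols, among them those of Ndufb4, Ndufa11 and Ndufs6, and were left out. The rule does not take in Cox4i1, Cox4i2 and Ndufab1. Ndufa4 and Cox7a2l were placed by name: Ndufa4 is now regarded as a complex IV subunit, and Cox7a2l as a factor of respiratory supercomplexes.

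As background, complexes I and II pass electrons from NADH and succinate to ubiquinone, complex III passes them on to cytochrome c, and complex IV hands them to oxygen, while complex V uses the proton gradient that I, III and IV build to make ATP. Nuclear genes encode most subunits, and mitochondrial DNA encodes a core set that is not among these genes. Photoreceptors are among the most active oxygen users of the body, and their mitochondria are packed into the inner segment, next to the outer segment that detachment separates from the pigment epithelium.

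Retinas of Balb/cJ mice were detached by injecting 1 uL under the retina, with saline in one arm and saline with 10 uM INS37217 in the other. INS37217 (denufosol) activates P2Y2, a cell-surface receptor for extracellular nucleotides, and was given to speed the reattachment. There were 6 groups: saline 2 h, INS37217 2 h, saline 24 h, INS37217 24 h, saline 7 d and INS37217 7 d, with 3 Affymetrix arrays each and a separate RNA pool of more than 5 retinas on every array. Detachment was common to all groups and uninjected retina was not analysed here, so a difference with time compares later with earlier injected retinas. Whole retinas were pooled, and fewer cells of a type and less RNA per cell cannot be told apart in such samples.

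The values are log2 RMA values, so a difference of 1 is a doubling. Of the 78 members, 75 lay above the median level of all probe sets. Arrays of the same replicate number resembled each other across groups. Replicate 1 of every group stood apart: its members were lower than those of replicates 2 and 3 by a median of 0.31 (67 of 78 lower), against a median difference of -0.17 over the brighter probe sets and 0.01 over all probe sets. The labels of saline 7 d replicate 2 disagree, its title giving 7 d and its source name 2 h; it was kept at 7 d by its title, and values that changed without it are given beside the results. Each test is given in 2 forms, the limma fit of the 6 group means and the same fit with the replicate number as an added term, called the block. The adjusted p is that of Benjamini and Hochberg over 22626 probe sets, a gene passed at adjusted p under 0.05, and SE is the standard error of the difference without the block.

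Subunit genes stood higher at 7 d than at 2 h in both arms, by small amounts, and INS37217 and saline retinas were close at each time. The mean log2 value of the 78 members was 9.79, 9.94 and 10.04 on saline 2 h replicates 1, 2 and 3, 9.89, 10.09 and 10.16 at 24 h, and 9.92, 10.27 and 10.26 at 7 d. In the INS37217 arm it was 9.82, 9.97 and 10.05 at 2 h, 9.81, 10.09 and 10.12 at 24 h, and 9.85, 10.24 and 10.27 at 7 d. The ranges of the 2 h and 7 d groups overlapped, because replicate 1 at 7 d lay below replicates 2 and 3 at 2 h. Within each replicate number the 7 d mean was higher than the 2 h mean, by 0.13, 0.33 and 0.22 in saline and by 0.03, 0.27 and 0.21 in INS37217 retinas.

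**Figure D1:**
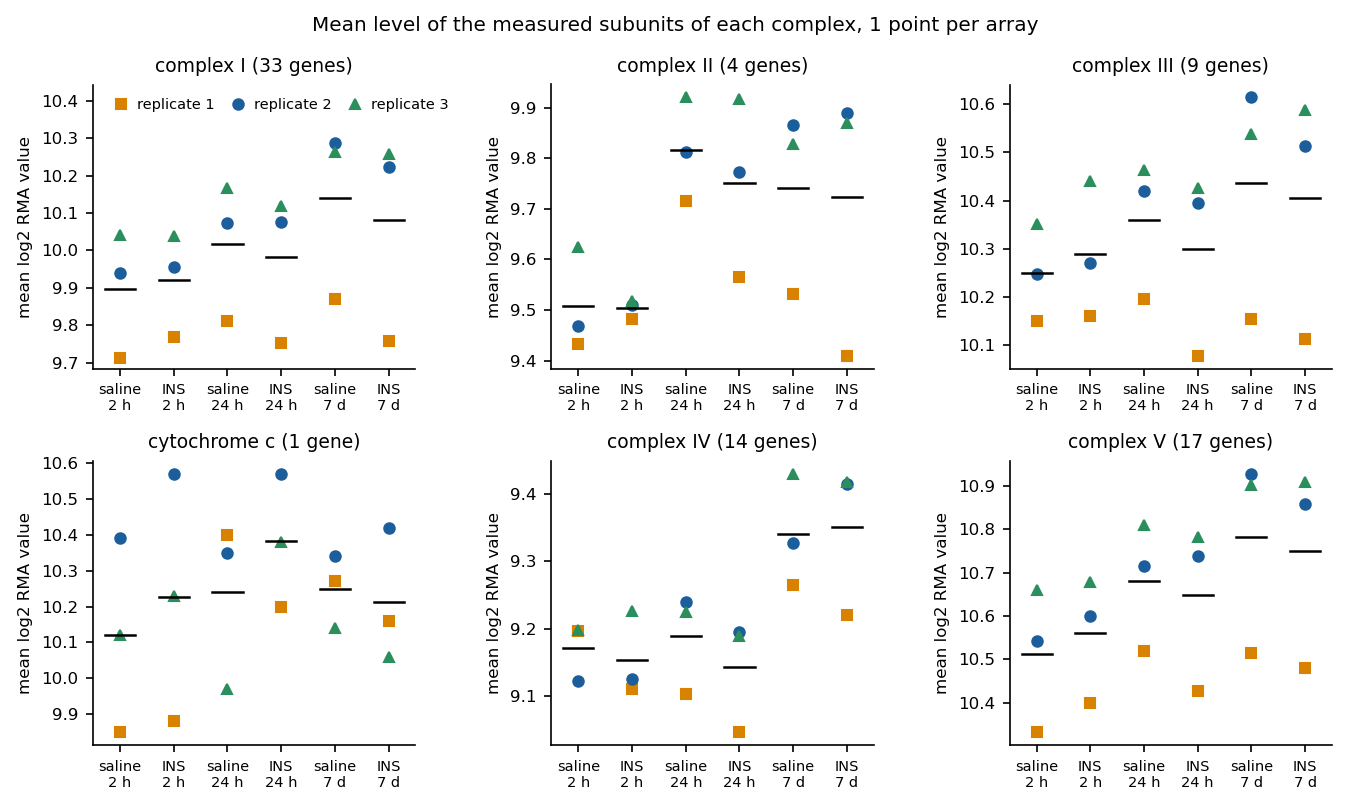
Mean log2 RMA value of the members of each complex (vertical axis) in the 6 groups (horizontal axis; INS, INS37217), with 1 point per array, marked by replicate number, and the group mean as a bar; each panel has its own vertical scale. Replicate 1 lies lowest in all 6 groups for complexes I, II, III and V, and within each arm the group means of complexes I, III, IV and V are highest at 7 d.

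From 2 h to 7 d in saline retinas 69 of 78 members were higher (88.5%, against 47.8% of all probe sets), with a median of 0.24 against -0.01. Without the block 2 members passed, Cox8b and Atp5g2 (2.56%), where 5.44% of all probe sets passed. With the block 30 members rose and none fell (38.5%), where 12.3% of all probe sets rose and 9.59% fell, 21.9% in all. In INS37217 retinas 63 members were higher (80.8%, against 42.6%), with a median of 0.16 against -0.04. Without the block 2 passed, Cox8b and Ndufa3, where 4.91% of all probe sets passed, and with it 13 rose and none fell (16.7%), where 9.21% of all probe sets rose and 8.68% fell, 17.9% in all. The 30 became 17 without saline 7 d replicate 2, and 16 or 19 without saline 2 h replicate 2 or 3, and the 13 became 6 without INS37217 7 d replicate 2, and 7 or 8 without INS37217 2 h replicate 2 or 3. The shares of all probe sets in these fits are not given, so a loss among the members cannot be told from a general loss of calls. Without the block no member passed in saline when saline 7 d replicate 2 was left out, and the median was then 0.18. The ranges of the 3 arrays lay apart, with 7 d higher, in 14 members in saline and 9 in INS37217 retinas, or 17.9% and 11.5%, against 8.77% and 7.52% of all probe sets. All 3 same-numbered pairs of arrays showed a rise in 46 members in saline and 36 in INS37217 retinas, or 59% and 46.2%, against 23% and 18.9% of all probe sets.

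The 2 arms share no array, but their calls came from 1 fit with a shared estimate of the spread and of the block. The calls of the arms are therefore not independent of each other. With the block 12 members rose from 2 h to 7 d in both, 40% of those in saline and 92.3% of those in INS37217 retinas, while over all probe sets the shared calls made up 49.2% and 65.6%. They were Ndufa3, Ndufa13 and Ndufs4 of complex I, Sdhb of complex II, Uqcr11 of complex III, Cox6b1 and Cox8b of complex IV, and Atp5e, Atp5g2, Atp5j, Atp5l and Atp5o of complex V. The change from 2 h to 7 d differed between the arms in none of the 78, with or without the block, where the same test passed 0.0884% and 0.835% of all probe sets. The same held for the change from 2 h to 24 h, where 0.0575% and 1.07% of all probe sets passed, and from 24 h to 7 d, where 0.0398% and 0.274% did.

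Part of the difference was present by 24 h in saline retinas, where the mean of the members rose by 0.09, 0.15 and 0.12 in replicates 1, 2 and 3. In INS37217 retinas it changed by -0.01, 0.12 and 0.07, and the medians of complexes III and IV were -0.04 and -0.02. Of the brighter probe sets (mean above 6.73) 56% were higher at 24 h in saline (median 0.05) and 51.3% in INS37217 retinas (median 0.01). In saline retinas 59 members were higher at 24 h than at 2 h (75.6%, against 44% of all probe sets; median 0.11 against -0.04). Ndufa3 and Atp5g2 passed without the block, where 7.58% of all probe sets did, and with the block 15 rose and 3 fell, where 16.1% of all probe sets rose and 12.9% fell. In INS37217 retinas 48 were higher (61.5%, against 42.3%; median 0.06 against -0.04), Ndufa3 passed, where 6.52% of all probe sets did, and with the block 5 rose and 3 fell, against 11.6% and 10.5%. The 5 that rose there, Ndufa3, Ndufa9, Sdhd, Atp5g1 and Atp5g2, also rose in saline retinas. At this step the share of members called with the block was close to that of all probe sets in saline retinas (23.1% against 29%) and lower in INS37217 retinas (10.3% against 22.1%). With the block, the 18 calls in saline became 7 or 11 without saline 2 h replicate 2 or 3 and 9 without saline 24 h replicate 1. The 8 calls in INS37217 retinas became 5 or 2 without INS37217 2 h replicate 2 or 3, and 4, 5 or 2 without INS37217 24 h replicate 1, 2 or 3. After a second quantile normalization 3 rose and 1 fell in saline, and 2 rose and 1 fell in INS37217 retinas, without the block. The counts with an array left out or after that normalization stand without the share of all probe sets in the same fits.

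From 24 h to 7 d, 65 members in saline and 67 in INS37217 retinas were higher (83.3% and 85.9%, against 54.1% and 49.8% of all probe sets), with medians of 0.09 in both, against 0.02 and 0. Without saline 7 d replicate 2 the saline median was 0.03, close to that of all probe sets, and no member passed there without the block. In that fit the low replicate 1 weighs more at 7 d than at 24 h. Between same-numbered saline arrays the mean of the members rose by 0.04, 0.18 and 0.10 in replicates 1, 2 and 3. Cox8b passed in both arms without the block, where 1.31% and 2.21% of all probe sets passed. With the block 3 rose and 1, Ndufa3, fell in saline, where 2.72% of all probe sets rose and 4.65% fell (7.37% in all), and 4 rose in INS37217 retinas, where 3.59% rose and 4.07% fell (7.66% in all). Cox8b, Ndufb11 and Ndufv3 rose in both.

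**Figure D2:**
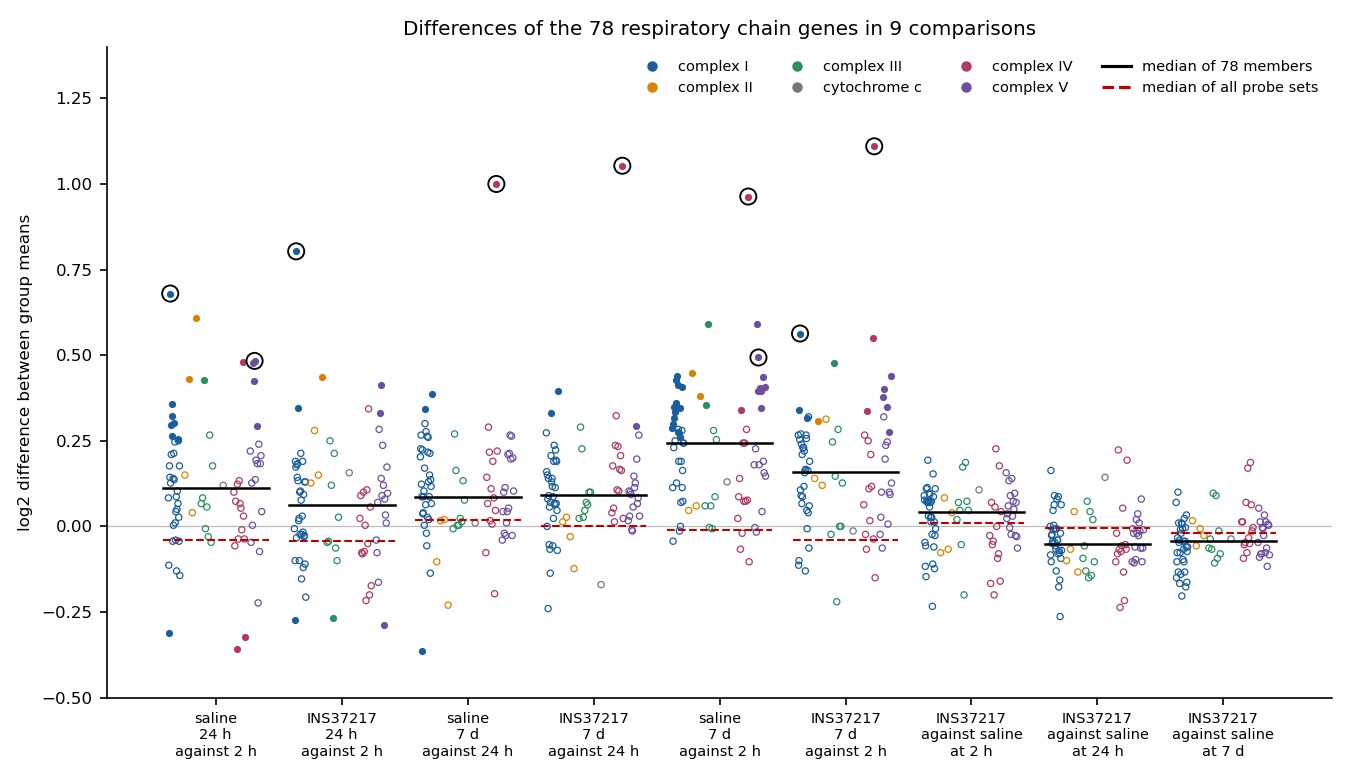
Log2 difference (vertical axis) of each of the 78 members in 9 comparisons (horizontal axis), coloured by complex; filled points passed with the block, points in a black ring passed without it too, and lines give the medians of the members and of all probe sets. Ringed are Ndufa3 at 24 h against 2 h in both arms, Atp5g2 there in saline, Cox8b in the 4 comparisons with 7 d, and, at 7 d against 2 h, Atp5g2 in saline and Ndufa3 in INS37217 retinas; no point is filled in the 3 comparisons of INS37217 with saline.

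The complexes were compared by their medians, and the differences between them were not tested. From 2 h to 7 d in saline retinas the medians were 0.27 for complex I, 0.22 for complex II, 0.09 for complex III, 0.13 for cytochrome c, 0.08 for complex IV and 0.23 for complex V. Without saline 7 d replicate 2 the saline medians were 0.21, 0.19, 0.10, 0.08, 0.15 and 0.20 without the block. In that fit the medians of complexes III and IV were higher and the others lower, so the order of III, IV and cytochrome c changed. The low replicate 1 weighs more at 7 d there, and its part in this was not tested. In INS37217 retinas the medians, in the same order, were 0.17, 0.22, 0.13, -0.01, 0.11 and 0.20. Between same-numbered INS37217 arrays the means of complexes I, II and III changed by -0.01, -0.07 and -0.05 in replicate 1 and rose in replicates 2 and 3. Those of complexes IV and V rose in all 3 replicates. With the block 16 of 33 members of complex I, 2 of 4 of complex II, 2 of 9 of complex III, 2 of 14 of complex IV and 8 of 17 of complex V rose in saline, and 3, 1, 1, 3 and 5 in INS37217 retinas. Of all probe sets 12.3% rose in saline and 9.21% in INS37217 retinas. The counts of complex IV in saline and of complexes I and III in INS37217 retinas are near these shares and are not read as results. Over the 9 comparisons of 2 groups 39 members passed at least once with the block and 39 never did. The share of all probe sets that passed at least once was not counted. In 1 comparison alone, saline 24 h against 2 h, 29% of all probe sets passed with the block, so the 39 are not read as a result about the members.

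**Figure D3:**
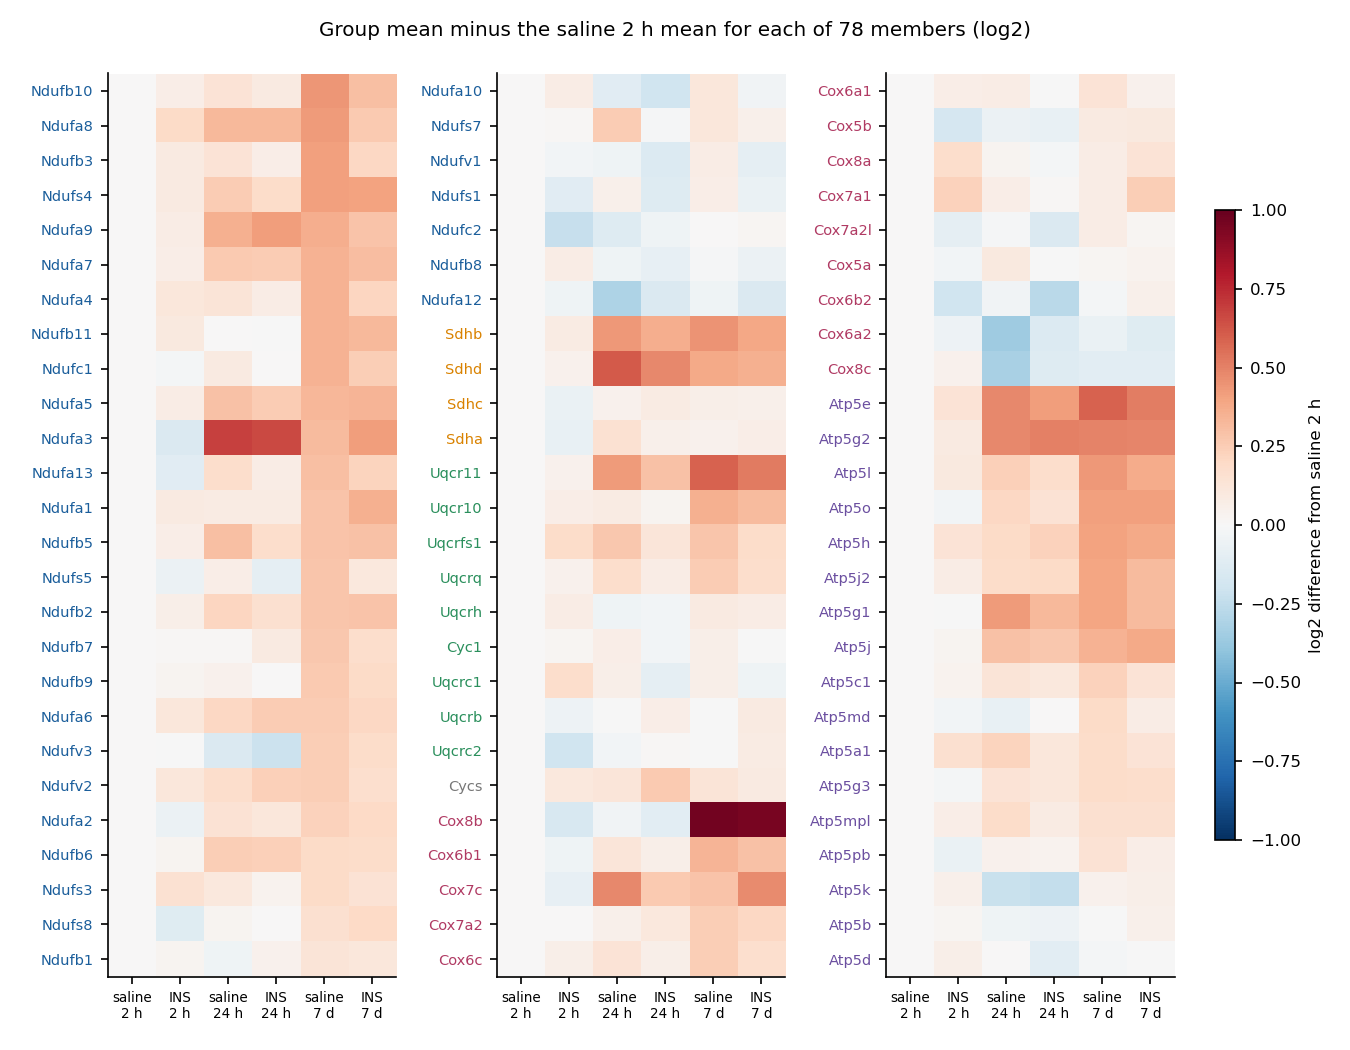
Group mean minus the saline 2 h mean on the log2 scale (colour) for the 78 members (vertical axis, names coloured by complex as in the plot of differences, ordered within a complex by the saline 7 d value) in the 6 groups (horizontal axis; INS, INS37217). Most cells of the 7 d columns are red, Ndufa3 is the darkest of the 24 h columns, and Cox8b is darkest in the 7 d columns and near 0 at 24 h.

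Complex I. Ndufa3, an accessory subunit in the membrane arm, changed most among the complex I genes and did so by 24 h. Its log2 values were 10.51, 10.36 and 10.48 on the saline 2 h arrays, 11.05, 11.12 and 11.22 at 24 h, and 10.55, 10.90 and 10.85 at 7 d. In the INS37217 arm they were 10.33, 10.34 and 10.24 at 2 h, 11.19, 11.02 and 11.11 at 24 h, and 10.67, 10.84 and 11.09 at 7 d. All 6 arrays at 24 h lay above all 6 at 2 h. Replicate 1 was lowest of its group at saline 24 h and at 7 d in both arms, and the saline difference from 2 h to 7 d was 0.04 in replicate 1 against 0.54 and 0.37 in replicates 2 and 3. The rise from 2 h to 24 h was 0.68 in saline (SE 0.12, adjusted p = 0.00198, limma) and 0.80 in INS37217 retinas (SE 0.12, adjusted p = 0.000422). At 7 d Ndufa3 was still above 2 h by 0.56 in INS37217 retinas (SE 0.12, adjusted p = 0.00974), a call lost without INS37217 7 d replicate 3 (adjusted p = 0.0668). In saline the difference was 0.32 (adjusted p = 0.17, 0.0405 with the block), and the step down from 24 h to 7 d was -0.36 (adjusted p = 0.245, 0.0449 with the block), a call with the block that was lost in 11 of 18 fits that left out 1 array (adjusted p up to 0.256). A second Ndufa3 probe set rose by 0.79 and 0.78 from 2 h to 24 h (adjusted p = 0.00441 and 0.00487).

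The promoter of Ndufa3 is shown because this gene gave the clearest early change. It lies at chr7:3617123-3617422 on the plus strand of GRCm38.p6, from 250 bases before to 50 bases after the RefSeq start, and the capitals mark a TATAAA match 166 bases before the start and an AAGATGGC match, the core of the YY1 motif, 22 bases after it.
Ndufa3: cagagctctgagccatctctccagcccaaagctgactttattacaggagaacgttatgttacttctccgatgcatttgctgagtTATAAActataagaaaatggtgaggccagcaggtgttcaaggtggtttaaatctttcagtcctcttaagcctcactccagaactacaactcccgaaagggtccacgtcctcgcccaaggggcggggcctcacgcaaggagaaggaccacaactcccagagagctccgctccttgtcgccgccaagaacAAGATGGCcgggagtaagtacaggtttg

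Of the 33 complex I genes 20 passed in at least 1 comparison with the block and 13 in none, and Ndufa3 alone passed without it. Here too the share of all probe sets passing at least once was not counted. Ndufv3, a small subunit of the NADH-oxidising arm, was 10.52, 10.86 and 10.71 at saline 24 h and 11.02, 11.10 and 11.13 at saline 7 d, so the groups did not overlap, and the difference was 0.39 (SE 0.10, adjusted p = 0.0846, 0.0129 with the block). It was 0.40 in INS37217 retinas (adjusted p = 0.0545, 0.00912 with the block), with groups that again did not overlap. With the block these calls were lost without saline 24 h replicate 1 or 3 or saline 7 d replicate 3 (adjusted p up to 0.101), and without INS37217 24 h replicate 1 (adjusted p = 0.0602). Ndufb11, a membrane arm subunit whose gene is X-linked, differed by 0.34 and 0.33 over the same step (adjusted p = 0.0251 and 0.0288 with the block, 0.966 and 1 without). Its replicate 1 arrays lay far below the others, 10.52 against 11.27 and 11.31 at saline 24 h and 10.95 against 11.55 and 11.63 at saline 7 d. Its calls with the block were lost without any 1 of the saline 24 h arrays or of saline 7 d replicates 1 and 3 (adjusted p up to 0.141), and without INS37217 24 h replicate 1 or 3 or INS37217 7 d replicate 1 or 2 (up to 0.179). Ndufa9, a subunit near the ubiquinone site, was 0.36 and 0.35 higher at 24 h than at 2 h in saline and INS37217 retinas (adjusted p = 0.0165 and 0.0241 with the block, 0.374 and 0.464 without), the second call being lost without INS37217 2 h replicate 2 or 3 or INS37217 24 h replicate 1 or 3 (up to 0.135). Ndufb10, also of the membrane arm, was 0.44 higher at saline 7 d than at 2 h (adjusted p = 0.0061 with the block, 0.596 without). Without saline 7 d replicate 2 its difference was 0.23, or 0.33 with the block, and the call was lost (adjusted p = 0.0627). The other 28 complex I genes ranged from -0.04 to 0.43 in that comparison. Ndufa4 was 0.35 higher at saline 7 d (adjusted p = 0.00425 with the block, 0.321 without) and 0.11 higher in INS37217 retinas, where it passed neither fit.

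Complex II. With the block Sdhd and Sdhb passed at 24 h in saline and Sdhd alone in INS37217 retinas, and Sdha and Sdhc passed nowhere. Sdhd, a membrane anchor, was 8.99, 9.08 and 9.33 at saline 2 h and 9.49, 9.89 and 9.85 at saline 24 h, with no overlap, a difference of 0.61 (SE 0.20, adjusted p = 0.0862, 0.000701 with the block). In INS37217 retinas it was 9.19, 9.19 and 9.14 at 2 h and 9.33, 9.61 and 9.89 at 24 h, again with no overlap, a difference of 0.44 (SE 0.20, adjusted p = 0.295, 0.0124 with the block), a call lost without INS37217 2 h replicate 2 or 3 or INS37217 24 h replicate 3 (up to 0.114). At 7 d the groups overlapped those at 2 h, and the difference was 0.38 in saline (adjusted p = 0.0284 with the block, 0.398 without). Sdhb, the iron-sulfur subunit, was 0.43 higher at saline 24 h and 0.45 at saline 7 d than at 2 h (adjusted p = 0.00392 and 0.00368 with the block, 0.402 and 0.455 without). Sdha, the flavoprotein, was 0.15 and 0.05 higher, and Sdhc, the other anchor, 0.04 and 0.06, and neither passed any of the 9 comparisons. A second Sdhd probe set, of lower signal (mean 6.05), differed by -0.08 at saline 24 h.

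Complex III and cytochrome c. Uqcr11, the smallest subunit, was the complex III gene of largest change. Its values were 9.06, 9.19 and 9.45 at saline 2 h, 9.33, 9.66 and 9.99 at 24 h, and 9.32, 10.05 and 10.10 at 7 d. Each array at 7 d lay above the array of its own number at 2 h, but replicate 1 at 7 d lay below replicate 3 at 2 h. The difference was 0.59 in saline (SE 0.26, adjusted p = 0.249, 0.0006 with the block) and 0.48 in INS37217 retinas (adjusted p = 0.441, 0.00479 with the block). Uqcr10, a small subunit too, was 0.35 higher at saline 7 d than at 2 h (adjusted p = 0.0208 with the block, 0.214 without) and 0.25 higher in INS37217 retinas (adjusted p = 0.12 with the block, 0.507 without). The core protein Uqcrc1 was lower at INS37217 24 h than at 2 h by 0.27 (adjusted p = 0.0338 with the block, 0.216 without). Cyc1, the cytochrome of complex III, differed by 0.06 and -0.02 from 2 h to 7 d in saline and INS37217 retinas. Cycs, the soluble electron carrier, differed by 0.13 and -0.01, and neither gene passed any comparison. A second Cycs probe set read 0.48 higher at saline 7 d than at 2 h (adjusted p = 0.000962 with the block, 0.288 without), so the probe sets of Cycs disagreed in size.

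Complex IV. The gene with the largest change of all 78 was Cox8b, the form of subunit 8 known from heart and skeletal muscle, and it changed between 24 h and 7 d. Its values were 6.77, 6.79 and 6.90 at saline 2 h, 6.45, 7.02 and 6.88 at 24 h, and 7.28, 8.08 and 7.99 at 7 d. In INS37217 retinas they were 6.56, 6.64 and 6.78 at 2 h, 6.56, 6.85 and 6.74 at 24 h, and 7.20, 7.97 and 8.14 at 7 d. All 6 arrays at 7 d lay above all 12 earlier ones, and replicate 1 rose least in each arm. From 24 h to 7 d the rise was 1.00 in saline (SE 0.23, adjusted p = 0.0495, limma; 5.46e-05 with the block) and 1.05 in INS37217 retinas (SE 0.23, adjusted p = 0.0232; 2.05e-05 with the block). From 2 h to 7 d it was 0.96 (adjusted p = 0.0235) and 1.11 (adjusted p = 0.00945), a 1.95-fold and a 2.16-fold rise.

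The saline call from 24 h to 7 d was lost in 15 of the 18 fits that left out 1 array (adjusted p up to 0.217) and kept without saline 7 d replicate 1, INS37217 7 d replicate 1 or INS37217 7 d replicate 3. The saline call from 2 h to 7 d was lost without any 1 of the 3 saline 2 h arrays or of saline 7 d replicates 2 and 3 (adjusted p up to 0.12). In INS37217 retinas the call from 24 h to 7 d was lost without any 1 of the 3 INS37217 24 h arrays or of INS37217 7 d replicates 2 and 3 (up to 0.141), and that from 2 h to 7 d without INS37217 7 d replicate 2 or 3 (up to 0.064). With the block all 4 calls held in all 18 such fits. Without saline 7 d replicate 2, the array with 2 times in its labels, the saline differences were 0.85 from 24 h and 0.82 from 2 h (adjusted p = 0.214 and 0.12), or 0.90 and 0.87 with the block (adjusted p = 0.000956 and 0.000581).

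The other isoforms of complex IV that are known from muscle did not pass at 7 d. Cox6a2 differed by -0.07 from 2 h to 7 d in each arm and Cox7a1 by 0.07 and 0.02, and neither passed. Cox6a2 was lower at saline 24 h than at 2 h by 0.36 (adjusted p = 0.0394 with the block, 0.202 without). Cox8c, a form known from testis, was lower there by 0.32 (adjusted p = 0.0349 with the block, 0.645 without). Of the forms found in most tissues Cox6a1 differed by 0.14 and -0.02 from 2 h to 7 d and Cox7a2 by 0.24 and 0.21, while Cox7a2l differed by 0.07 and 0.12 and the testis form Cox6b2 by -0.02 and 0.25, and none of these passed. Cox6b1 was 0.34 higher in both arms (adjusted p = 0.00679 and 0.009 with the block, 0.533 and 0.58 without). Cox7c, whose probe sets had low signal, was 0.48 higher at saline 24 h than at 2 h (adjusted p = 0.0252 with the block, 0.397 without) and 0.55 higher at INS37217 7 d than at 2 h (adjusted p = 0.0167 with the block, 0.416 without), and saline 24 h replicate 1 went the other way, by -0.18. The first call was lost without saline 2 h replicate 2 or 3 or saline 24 h replicate 2 or 3 (up to 0.188), and the second without INS37217 2 h replicate 1 or 2 or INS37217 7 d replicate 1 or 2 (up to 0.0677).

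Cox8a, the form of subunit 8 in most tissues, differed by 0.08 and -0.04 from 2 h to 7 d. Its probe set was read at 11.62 to 11.98 on the 6 replicate 1 arrays and at 10.52 to 10.99 on the other 12, the reverse of most members. Another Cox8a probe set of similar signal was 0.33 higher at saline 7 d (adjusted p = 0.0199 with the block, 0.681 without). The pair of subunit 8 promoters is printed because Cox8b changed and the main Cox8a probe set did not pass; RefSeq places them at chr7:140900397-140900696 (Cox8b) and chr19:7217567-7217866 (Cox8a), both on the minus strand of GRCm38.p6. Capitals in Cox8b mark CAGCTG, an E-box, 19 bases before and 16 bases after the start, and TATAAA 4 bases after it. Capitals in Cox8a mark the reverse complement of the ETS motif CCGGAAGT, 6 bases before and 31 bases after the start.
Cox8b: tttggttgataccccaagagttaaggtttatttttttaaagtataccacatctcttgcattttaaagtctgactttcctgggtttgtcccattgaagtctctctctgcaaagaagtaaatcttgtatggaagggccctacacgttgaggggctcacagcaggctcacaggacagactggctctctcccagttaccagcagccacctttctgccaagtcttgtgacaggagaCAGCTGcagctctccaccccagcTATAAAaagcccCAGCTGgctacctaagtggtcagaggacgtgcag
Cox8a: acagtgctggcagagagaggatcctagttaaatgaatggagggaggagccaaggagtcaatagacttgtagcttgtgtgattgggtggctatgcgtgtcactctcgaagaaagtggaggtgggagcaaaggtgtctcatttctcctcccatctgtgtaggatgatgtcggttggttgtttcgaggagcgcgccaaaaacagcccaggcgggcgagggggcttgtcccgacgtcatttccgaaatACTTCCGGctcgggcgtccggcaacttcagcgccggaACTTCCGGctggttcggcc

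**Figure D4:**
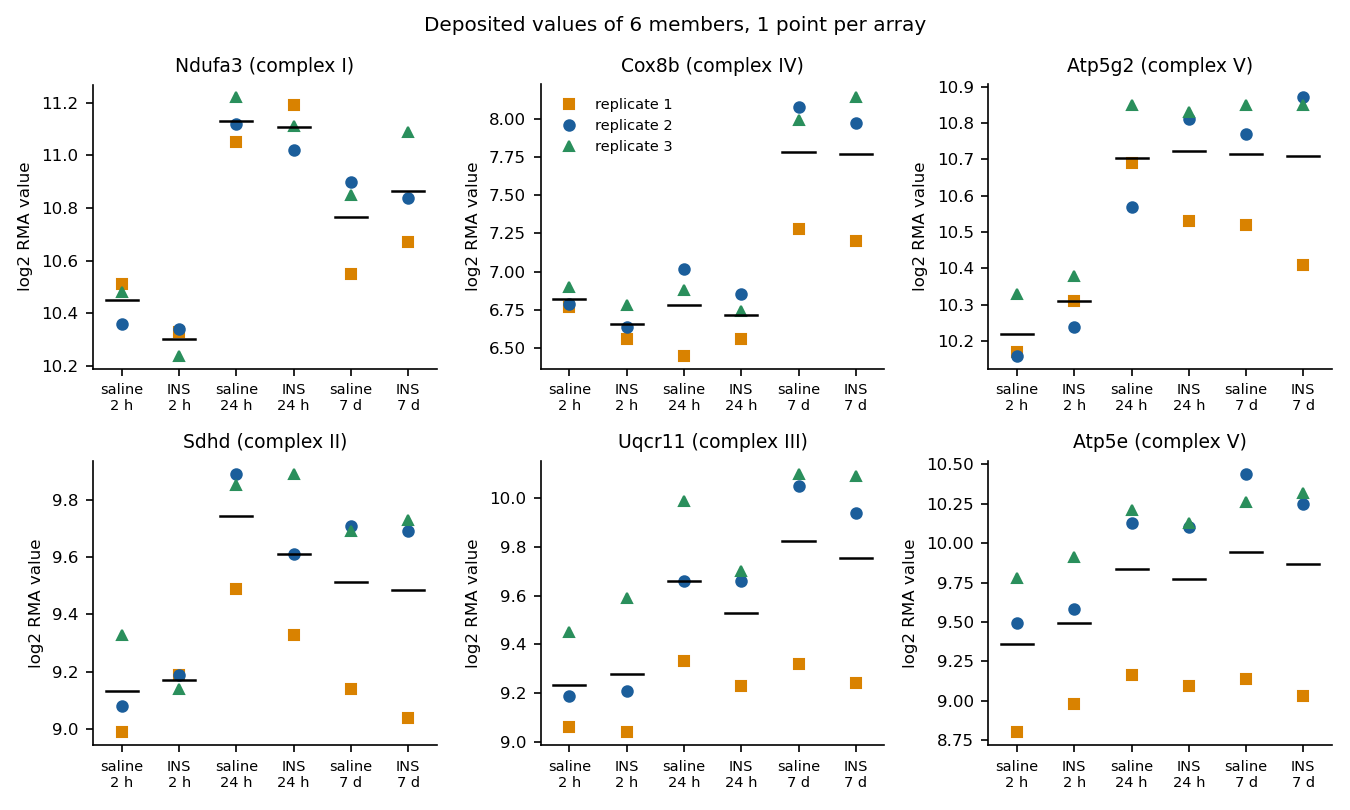
Log2 RMA value (vertical axis, own scale in each panel) of 6 members on the 18 arrays, by group (horizontal axis; INS, INS37217), with replicate number as the marker and the group mean as a bar. Ndufa3 is highest at 24 h, Cox8b is high at 7 d only, Atp5g2 is high from 24 h on, and replicate 1 lies below the other arrays of its group for Uqcr11 and Atp5e.

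Complex V. Atp5g2 rose in saline retinas by 24 h and was as high at 7 d. With the block 8 of the 17 genes rose there by 7 d, where 12.3% of all probe sets rose. Atp5g2, one of the genes for the c subunit of the rotor ring, was 10.17, 10.16 and 10.33 at saline 2 h, 10.69, 10.57 and 10.85 at 24 h, and 10.52, 10.77 and 10.85 at 7 d. Neither later group overlapped the 2 h group, and 24 h and 7 d did overlap. The rise was 0.48 at 24 h (SE 0.14, adjusted p = 0.0441, 0.00142 with the block) and 0.49 at 7 d (SE 0.14, adjusted p = 0.04998, 0.00148 with the block). In INS37217 retinas Atp5g2 was 10.31, 10.24 and 10.38 at 2 h, 10.53, 10.81 and 10.83 at 24 h, and 10.41, 10.87 and 10.85 at 7 d, differences of 0.41 and 0.40 (adjusted p = 0.101 and 0.135, 0.00614 and 0.00956 with the block), and the second of these was lost without INS37217 2 h replicate 2 or 3 or INS37217 7 d replicate 2 (up to 0.0828). The saline calls without the block stood at the threshold: that at 24 h was kept in 4 of 18 fits that left out 1 array, namely INS37217 24 h replicate 1, saline 7 d replicate 1, INS37217 7 d replicate 1 or INS37217 7 d replicate 2, and that at 7 d in 3, the first 3 of these (adjusted p up to 0.192 and 0.22). With the block both held in all 18; without saline 7 d replicate 2 the difference at 7 d was 0.46 (adjusted p = 0.163, 0.0106 with the block). A second Atp5g2 probe set of low signal (mean 5.35) differed by 0.07 and -0.32.

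The Atp5g2 promoter, chr15:102670998-102671297 on the minus strand of GRCm38.p6, is shown with a match to the NRF1 motif, 42 bases before the RefSeq start, in capitals.
Atp5g2: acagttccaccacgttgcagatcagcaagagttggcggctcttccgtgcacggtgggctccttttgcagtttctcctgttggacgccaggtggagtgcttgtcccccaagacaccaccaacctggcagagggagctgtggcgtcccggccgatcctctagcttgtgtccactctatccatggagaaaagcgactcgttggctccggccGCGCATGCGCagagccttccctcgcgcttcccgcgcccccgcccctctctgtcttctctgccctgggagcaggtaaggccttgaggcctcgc

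Atp5g1, another c subunit gene, was 0.42 higher at saline 24 h (adjusted p = 0.00824 with the block, 0.391 without) and 0.33 higher at INS37217 24 h (adjusted p = 0.0428 with the block, 0.61 without), a call lost in 7 of 18 fits that left out 1 array (up to 0.182). Atp5e, the epsilon subunit of the central stalk, was 8.80, 9.49 and 9.78 at saline 2 h and 9.14, 10.44 and 10.26 at saline 7 d. Replicate 1 lay lowest in both groups, which overlapped, and the difference was 0.59 (SE 0.44, adjusted p = 0.627, 0.000728 with the block). Without saline 7 d replicate 2 it was 0.34 without the block (adjusted p = 0.95), and the call with the block held. Atp5o, which joins the head to the peripheral stalk, was 0.41 and 0.44 higher at 7 d than at 2 h in saline and INS37217 retinas (adjusted p = 0.00404 and 0.00266 with the block, 0.148 and 0.122 without). Atp5k, a membrane subunit, was 0.29 lower at INS37217 24 h than at 2 h and 0.29 higher at 7 d than at 24 h (adjusted p = 0.0167 and 0.0328 with the block, 0.125 and 0.241 without), the second call being lost without any 1 of the INS37217 24 h arrays or of INS37217 7 d replicates 2 and 3 (up to 0.178). Atp5a1 and Atp5b of the catalytic head, and Atp5c1 and Atp5d of the central stalk, did not pass any comparison.

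INS37217 against saline. The medians of the differences between the arms were small beside those of the changes from 2 h to 7 d. They were not small beside the change from 2 h to 24 h in INS37217 retinas (median 0.06). No member passed at 2 h, 24 h or 7 d, with or without the block, and none had an unadjusted p under 0.05 without it, where 3.53%, 3.13% and 2.06% of all probe sets did. The shares of all probe sets that passed were 0.128%, 0.119% and 0.15%, and 1.76%, 0.888% and 0.641% with the block. The medians of the members were 0.04, -0.05 and -0.04, against 0.01, -0.0033 and -0.02 over all probe sets. Over the brighter probe sets they were -0.01, -0.05 and -0.03, so at 24 h the median of the members was level with theirs. Members higher in INS37217 retinas numbered 49, 21 and 22 (62.8%, 26.9% and 28.2%). Of the brighter probe sets 46.9%, 35.2% and 39.4% were higher, and of all probe sets 52.7%, 48.7% and 42.6%. In all 3 same-numbered pairs 23, 6 and 0 members were higher (29.5%, 7.69% and 0%), against 18.5%, 16.9% and 12.3% of all probe sets. Lower in all 3 were 7, 19 and 20 (8.97%, 24.4% and 25.6%), against 15.9%, 19.7% and 17.1%. Without saline 7 d replicate 2 the 7 d median was 0.03 without the block, and that of complex I went from -0.06 to 0.01. In that fit the low replicate 1 weighs more in saline than in INS37217 retinas. Between same-numbered arrays the mean of the members differed at 7 d by -0.08, -0.04 and 0.01 in replicates 1, 2 and 3. The differences of largest size were those of Ndufc2 at 2 h (-0.23), Ndufs7 at 24 h (-0.26) and Ndufb3 at 7 d (-0.20). The 95% intervals reached a median of 0.39 to either side of the difference, or 0.21 with the block, and they lay within 0.5 of zero in 43, 43 and 41 members at 2 h, 24 h and 7 d, or in 77, 76 and 76 with the block. Without the block the intervals of 3 members at each time reached beyond 1, with limits from -1.63 to 1.52. For Cox8b at 7 d the difference was -0.01 with an interval from -0.51 to 0.49, or from -0.30 to 0.28 with the block. For Ndufa3 at 24 h it was -0.02, from -0.28 to 0.23. These intervals, not adjusted for the number of probe sets, hold the differences that 3 arrays a group did not exclude.

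Of the 149 probe sets of the members, 1 differed between the arms, with the block. It is a dim probe set of Ndufa12 (mean 7.01), an accessory complex I subunit, which was 0.55 lower at INS37217 24 h than at saline 24 h (adjusted p = 0.0355 with the block, 1 without). The same probe set was 1.46 lower at saline 24 h and 2.02 lower at INS37217 24 h than at 2 h (adjusted p = 0.0701 and 0.0133, 1.89e-08 and 9.87e-11 with the block). The other 3 Ndufa12 probe sets, of higher signal, differed there by -0.31 to -0.08 and by -0.10 to 0.17, so this one did not stand for the gene's total signal.

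Promoter windows of 300 bases were found for 65 of the 78 members, 70 windows in all, in the RefSeq table for GRCm38.p6, and 6 motifs were searched on both strands; none of the motifs contains another. The NRF1 motif, in the letters that stand in capitals in the Atp5g2 promoter, was in 5.71% of the windows of members and 0.971% of all 32851 windows. The ETS motif CCGGAAGT was in 7.14% and 3.89%, the YY1 motif AAGATGGC in 12.9% and 2.75%, and the ERR motif TCAAGGTCA in 2.86% and 0.423%. TATAAA was in 11.4% and 13.6%, and CAGCTG in 8.57% and 16.3%. The promoters printed for Ndufa3, Cox8b, Cox8a and Atp5g2 thus differed in which of these letters they held. A match is a description of the letters, not of binding.

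Among the regulators of mitochondrial content the coactivator genes Ppargc1a and Ppargc1b fell at 24 h. Ppargc1b, a coactivator of mitochondrial genes, was 10.36, 10.10 and 10.16 at saline 2 h, 8.73, 8.73 and 8.77 at 24 h, and 9.51, 9.56 and 9.44 at 7 d. The 3 groups did not overlap, and replicate 1 did not stand apart. It fell by 1.46 from 2 h to 24 h in saline (SE 0.09, adjusted p = 8.95e-08) and by 1.56 in INS37217 retinas (SE 0.09, adjusted p = 2.78e-08). From 24 h to 7 d it rose by 0.76 (adjusted p = 0.000245) and 0.98 (adjusted p = 1.11e-05), and it stayed below 2 h by 0.70 and 0.58 (adjusted p = 0.000225 and 0.00104). Ppargc1a, the related coactivator PGC-1alpha, fell by 0.70 and 0.69 at 24 h (adjusted p = 0.00405 and 0.00448). Nrf1, whose product binds promoters of many subunit genes, fell by 0.83 at INS37217 24 h (adjusted p = 0.0275) and differed by -0.67 in saline (adjusted p = 0.0738, 0.00124 with the block). Tfam, which packages and transcribes mitochondrial DNA, was 0.42 and 0.39 higher at 24 h (adjusted p = 0.0104 and 0.0201 with the block, 0.207 and 0.296 without). Of the 13 regulators measured, none rose and 2 fell at saline 24 h, with 4 and 4 with the block, and 1 rose and 3 fell at INS37217 24 h, with 4 and 3 with the block. Of all probe sets 4.65% rose and 2.93% fell at saline 24 h, or 16.1% and 12.9% with the block. At INS37217 24 h 3.23% rose and 3.3% fell, or 11.6% and 10.5% with the block. Gabpb1, a subunit of the factor GABP (NRF2), was 0.57 lower at saline 7 d than at 2 h (adjusted p = 0.0325), and Pprc1, the third PGC-1 family member, was 0.88 lower at saline 7 d than at 24 h (adjusted p = 0.00819).

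The medians of 5 other mitochondrial lists were above 0 in saline retinas, and few of their genes passed without the block; with it, 16.1% of all probe sets rose at 24 h and 12.3% at 7 d. Of 45 genes of the large mitochondrial ribosomal subunit, 22 rose and none fell with the block at saline 24 h and 15 at saline 7 d, with medians of 0.27 at both times, while without it 0 and 1 passed (Mrpl54, 0.38, adjusted p = 0.0428). Of the 32 assembly factors 8 and 6 rose with the block at saline 24 h and 7 d (medians 0.17 and 0.15), and Coa6 and Cox16, which serve complex IV assembly, passed at 7 d without it (0.66 and 0.58, adjusted p = 0.0219 and 0.0143). Of 16 genes of the tricarboxylic acid cycle 5 and 2 rose with the block (medians 0.21 and 0.19). Among them Idh2, the mitochondrial NADP-dependent isocitrate dehydrogenase, was 0.63 higher at saline 24 h (adjusted p = 0.0264), whereas Cs, citrate synthase, differed by -0.09 and -0.03. Cox4i1, the main subunit 4 of complex IV that the name rule leaves out, was 0.05 higher at saline 24 h and 0.31 higher at 7 d (adjusted p = 0.026 with the block, 0.364 without). Of the 11 carriers and channels measured 2 and 4 rose with the block, with medians of 0.06 and 0.12.

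**Figure D5:**
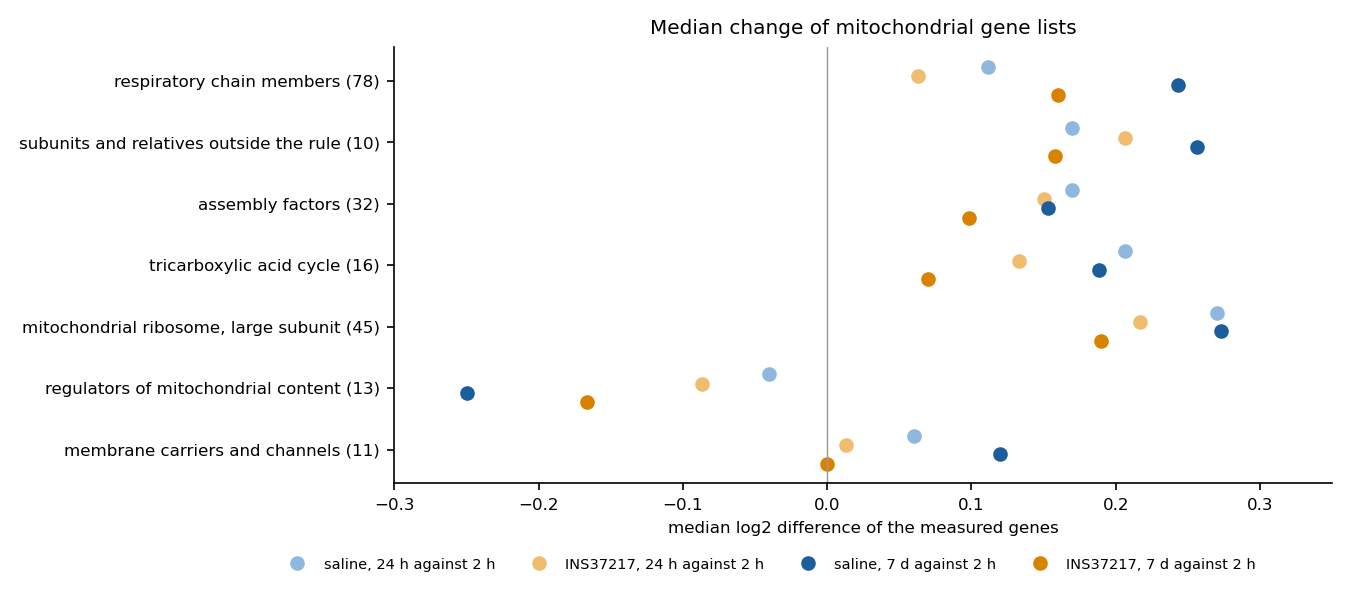
Median log2 difference (horizontal axis) of the measured genes of 7 lists (vertical axis, number of genes in brackets), 1 point for each of 24 h and 7 d against 2 h in each arm; the members are the top list. All lists but the regulators lie at or right of 0, and the regulators lie left of it, from -0.25 to -0.04.

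Markers of cell types moved over the same times. The mean over 13 rod markers was 11.79 to 12.17 on the saline 2 h arrays, 11.51 to 11.57 at 24 h and 11.73 to 11.81 at 7 d, so the markers of the main retinal cell were bright on every array. At saline 24 h 5 of the 13 fell (8 with the block, median -0.35), and at 7 d 1 was lower than at 2 h (3 with the block, median -0.09). Of 12 microglia and macrophage markers 8 rose from 2 h to 7 d in saline and 12 in INS37217 retinas, with the mean at 6.09 to 6.26 and 7.26 to 7.43, and at 6.05 to 6.28 and 7.69 to 7.95. Lyz2, a macrophage lysozyme, rose by 3.07 in saline (adjusted p = 2.35e-09). Of 9 pigment epithelium markers 5 and 4 rose from 2 h to 7 d, and their mean went from 7.85 to 8.08 at saline 2 h to 8.52 to 8.96 at 7 d. Of 9 Mueller glia markers 3 and 2 rose, and their mean was 9.47 to 9.80 at saline 2 h and 9.91 to 10.25 at 7 d. Of 14 lens markers 13 rose from 2 h to 7 d in saline and 2 in INS37217 retinas, and their mean was 11.05 to 11.21 on the saline 2 h arrays against 11.76 or more on all 15 others. Crygd, a lens crystallin, was 9.89, 10.12 and 10.32 at saline 2 h and 11.41, 11.22 and 11.16 at INS37217 2 h. Of all probe sets 2.93% fell at saline 24 h and 2.74% at saline 7 d, against 2 h, or 12.9% and 9.59% with the block. Without the block 2.7% rose from 2 h to 7 d in saline and 2.51% in INS37217 retinas. The part of these cell types in the changes of the subunit genes was not tested.

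Muscle markers, set beside Cox8b, stayed at low signal. Of 22 skeletal and extraocular muscle markers none passed from 2 h to 7 d in either arm, with a median of -0.02 in saline (2 higher with the block) and -0.10 in INS37217 retinas (2 lower with the block). Their mean was 5.51 to 5.59 at saline 2 h and 5.47 to 5.65 at saline 7 d. Acta1, skeletal actin, lay between 4.92 and 5.60 on all 18 arrays, and Ckm, muscle creatine kinase, between 5.98 and 6.73. From 24 h to 7 d none of the 22 passed in either arm. Of 8 heart muscle markers none passed from 2 h to 7 d, and 1 was lower at 7 d than at 24 h in each arm, with a mean of 4.89 to 5.03 at saline 2 h and 4.89 to 5.07 at saline 7 d.

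The array's RNA quality probes differed between 2 h and later arrays. The signal of the 3' beta-actin probe set minus that of the 5' one was 1.04 ± 0.09 (SD, n = 3) at saline 2 h and 0.75 ± 0.04 at INS37217 2 h, against group means of 0.60 to 0.65 in the 4 later groups. The same measure of Gapdh was -0.01 ± 0.07 at saline 2 h and -0.16 ± 0.14 at INS37217 2 h, against -0.34 to -0.25 later. Its part in the differences between 2 h and later groups was not tested.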

How the data were processed

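Total RNA of pooled retinas was hybridised to 18 Affymetrix mouse arrays. The deposited values are log2 and came from RMA run by the authors, per the submitters' processing notes, and the range of 2.83 to 14.15 fits the log2 scale; no RMA version was found. Of 22690 probe sets 64 controls were left out. Groups came from sample titles: 8 of 9 INS37217 arrays have a source name that speaks of saline only, and that of saline 7 d replicate 2 gives 2 h. That array was kept by its title; its values correlated best with 7 d arrays (0.9945 and 0.9941).

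limma 3.58.1 in R 4.3.3 (lmFit, eBayes; 1 mean per group on 18 arrays, 12 residual and 3.3 prior degrees of freedom, 10 and 10.5 with the block) gave every p, adjusted over 22626 probe sets. The number of arrays limits the precision. After removal of group means the 45 pairs of arrays of the same number correlated at 0.426 to 0.921, so replicate numbers were taken to pair the arrays; what a number stands for is not stated. Symbols came from the array annotation and RefSeq: 20380 probe sets had 1 symbol, 691 several and 1555 none. Named were, per comparison, up to 6 passing members per direction, the largest change per complex, fixed isoforms, and up to 4 members passing with the block only; a few others, such as Ndufa12, Uqcr10 and Uqcrc1, were chosen after their values were seen. Members and lists were chosen with earlier results of these data known. Steps were tested on simulated data.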

Additional observations from a re-analysis of the deposited data

How the results depend on the processing

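The replicate block, whose pairing rests on the correlation of same-numbered arrays, raised the number of members past the threshold from 2 to 18 (saline, 24 h against 2 h), 1 to 4 (saline, 7 d against 24 h), 2 to 30 (saline, 7 d against 2 h), 1 to 8, 1 to 4 and 2 to 13 (the same in INS37217 retinas). In that order, replicates 2 and 3 alone gave 10, 1, 35, 7, 2 and 21, and with the block 13, 2, 39, 8, 2 and 24. Quantile normalization gave 4, 1, 7, 3, 1 and 5, equal array medians 1, 1, 1, 1, 2 and 2, trend and robust settings 1, 0, 1, 1, 1 and 2, the arrays of the 2 groups alone 1, 0, 0, 1, 0 and 0, and the mean of a gene's probe sets 1, 2, 1, 1, 2 and 2. With each array left out in turn the counts ran from 1 to 3, 0 to 1, 0 to 3, 1 to 2, 0 to 2 and 0 to 4, and with the block, chosen after the data were seen, from 7 to 20, 1 to 5, 16 to 33, 2 to 9, 1 to 4 and 6 to 16. For INS37217 against saline every one of these settings gave 0 members at each time. The counts of this paragraph stand without the share of all probe sets that passed under the same setting. A setting that passes more probe sets can pass more members, so a higher count is not a stronger result about the members. The median change of the members from 2 h to 7 d ran from 0.18 to 0.34 in saline and 0.08 to 0.25 in INS37217 retinas, leave-one-out fits included. Ndufa3 at 24 h against 2 h passed in every alternative and every leave-one-out fit, in both arms. The block removes what same-numbered arrays share and assumes it alike in all groups. With 3 arrays a group, only intervals, not equality, can be given where nothing passed.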
